A study of Homo sapiens with 24 samples.

Results

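The extrinsic branch of apoptosis was examined through 10 genes chosen by name, namely the TRAIL receptors TNFRSF10A, TNFRSF10B, TNFRSF10C and TNFRSF10D, the receptors FAS and TNFRSF1A, the ligand TNFSF10, the adaptor FADD, the initiator caspase CASP8 and its inhibitor CFLAR. They are 10 of the 57736 genes in the deposited RNA-seq table. All 10 had counts in each of the 24 libraries, and all 10 passed the filter on low counts in both series. The cells were U87-T, a human glioblastoma line made by giving U87 cells a TERT transgene, so WT and knockout cells carry it alike. WT cells were U87-T carrying an empty CRISPR vector. DAXX_KO and ATRX_KO are CRISPR knockout lines of the same cells, each grown from 1 surviving clone with features of alternative lengthening of telomeres (ALT), so the knockout, the clone and the ALT-like state cannot be told apart. The libraries came in a pair of sets, called the DAXX series and the ATRX series, each with WT control, WT etoposide, KO control and KO etoposide cells and with 3 libraries in each of the 8 groups. Etoposide is a topoisomerase II poison that breaks DNA and activates p53. The control cells were untreated by the labels, and the dose and time of etoposide for these libraries were not given in the sources used here.

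In the extrinsic pathway a ligand on one cell clusters death receptors on another. TRAIL, encoded by TNFSF10, binds TNFRSF10A (DR4) and TNFRSF10B (DR5), which carry a cytoplasmic death domain, and the decoy receptors TNFRSF10C (DcR1) and TNFRSF10D (DcR2), which lack a working one. FAS is the receptor for FAS ligand, and TNFRSF1A is the main receptor for TNF. Engaged FAS, TNFRSF10A and TNFRSF10B recruit FADD directly, whereas TNFRSF1A first binds the adaptor TRADD. FADD brings in procaspase-8 for activation, and the inhibitor encoded by CFLAR, called c-FLIP, takes the place of procaspase-8 in this complex. FAS, TNFRSF10B and other TRAIL receptor genes are known p53 targets, and DAXX was first described as a protein that binds the death domain of FAS.

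Libraries held 6928950 to 13298557 counts, so that 3 counts corresponded to 0.215 to 0.407 CPM (counts scaled to a common library total). The targeted transcripts were lower in the lines named for them, in control and with etoposide. DAXX was at 34.4 ± 1.3 CPM in WT control and 5.92 ± 1.1 CPM in DAXX_KO control libraries (SD, n = 3), and ATRX was at 189 ± 5.1 CPM in WT and 79.3 ± 5.7 CPM in ATRX_KO. The DAXX difference was -2.53 ± 0.15 in control (adjusted p = 7.34e-11) and -1.13 ± 0.15 with etoposide (adjusted p = 2.30e-06), an interaction of 1.41 ± 0.22 (adjusted p = 0.0001945), and the ATRX difference was -1.25 ± 0.09 (adjusted p = 9.38e-09) and -1.32 ± 0.09 (adjusted p = 5.83e-09). The mesenchymal glioma markers VIM (1202 to 6079 CPM), CD44 (343 to 1041 CPM) and FN1 (101 to 815 CPM) were abundant, whereas CHI3L1, of the same kind, was at 0.244 to 7.81 CPM, the astrocyte marker GFAP reached no more than 0.496 CPM in any library and the neural stem cell marker SOX2 no more than 4.52 CPM, while NES (nestin), of the same kind, was at 18.8 to 88.7 CPM. Of the epithelial markers, KRT8 was at 3.79 to 29.6 CPM and EPCAM at 0 to 2.65 CPM. Levels below are CPM after TMM scaling of all 24 libraries. Differences are log2 fold changes from edgeR's quasi-likelihood test, with standard errors (SE) derived from its F statistic. P-values were adjusted by Benjamini-Hochberg over every gene tested, and a gene was called at a false discovery rate of 0.05. The study describes its experiments as done in biological replicates. What was kept separate between the replicate libraries is not given in the sources used here, and the p-values measure the spread between these libraries.

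In WT cells etoposide raised the transcripts of 5 receptors, of TRAIL and of c-FLIP and lowered those of the adaptor and the initiator caspase. TNFRSF10A, TNFRSF10B, TNFRSF10C, TNFRSF10D, FAS, TNFSF10 and CFLAR rose in WT of both series, and FADD and CASP8 fell in both. The TNFSF10 call in the DAXX series and the CASP8 call in the ATRX series were lost without single libraries and under other settings, as given below. Both are included in the counts that follow. In the DAXX series 7 of the 10 genes were higher, 2 lower and 1 was not called, where 29.6% of 15247 tested genes were higher, 30.6% lower and 60.2% called in either direction. In the ATRX series 7 were higher and 3 lower, against 31.7% and 29.8% of 16371 genes, with 61.5% called in either direction. The median log2 change of the 10 genes was 1.31 and 2.03, beside 0.02 and 0.07 for all genes tested. A bulk library averages over its cells, so a change in the share of cells that express a gene and a change in its level per cell cannot be told apart.

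**Figure D1:**
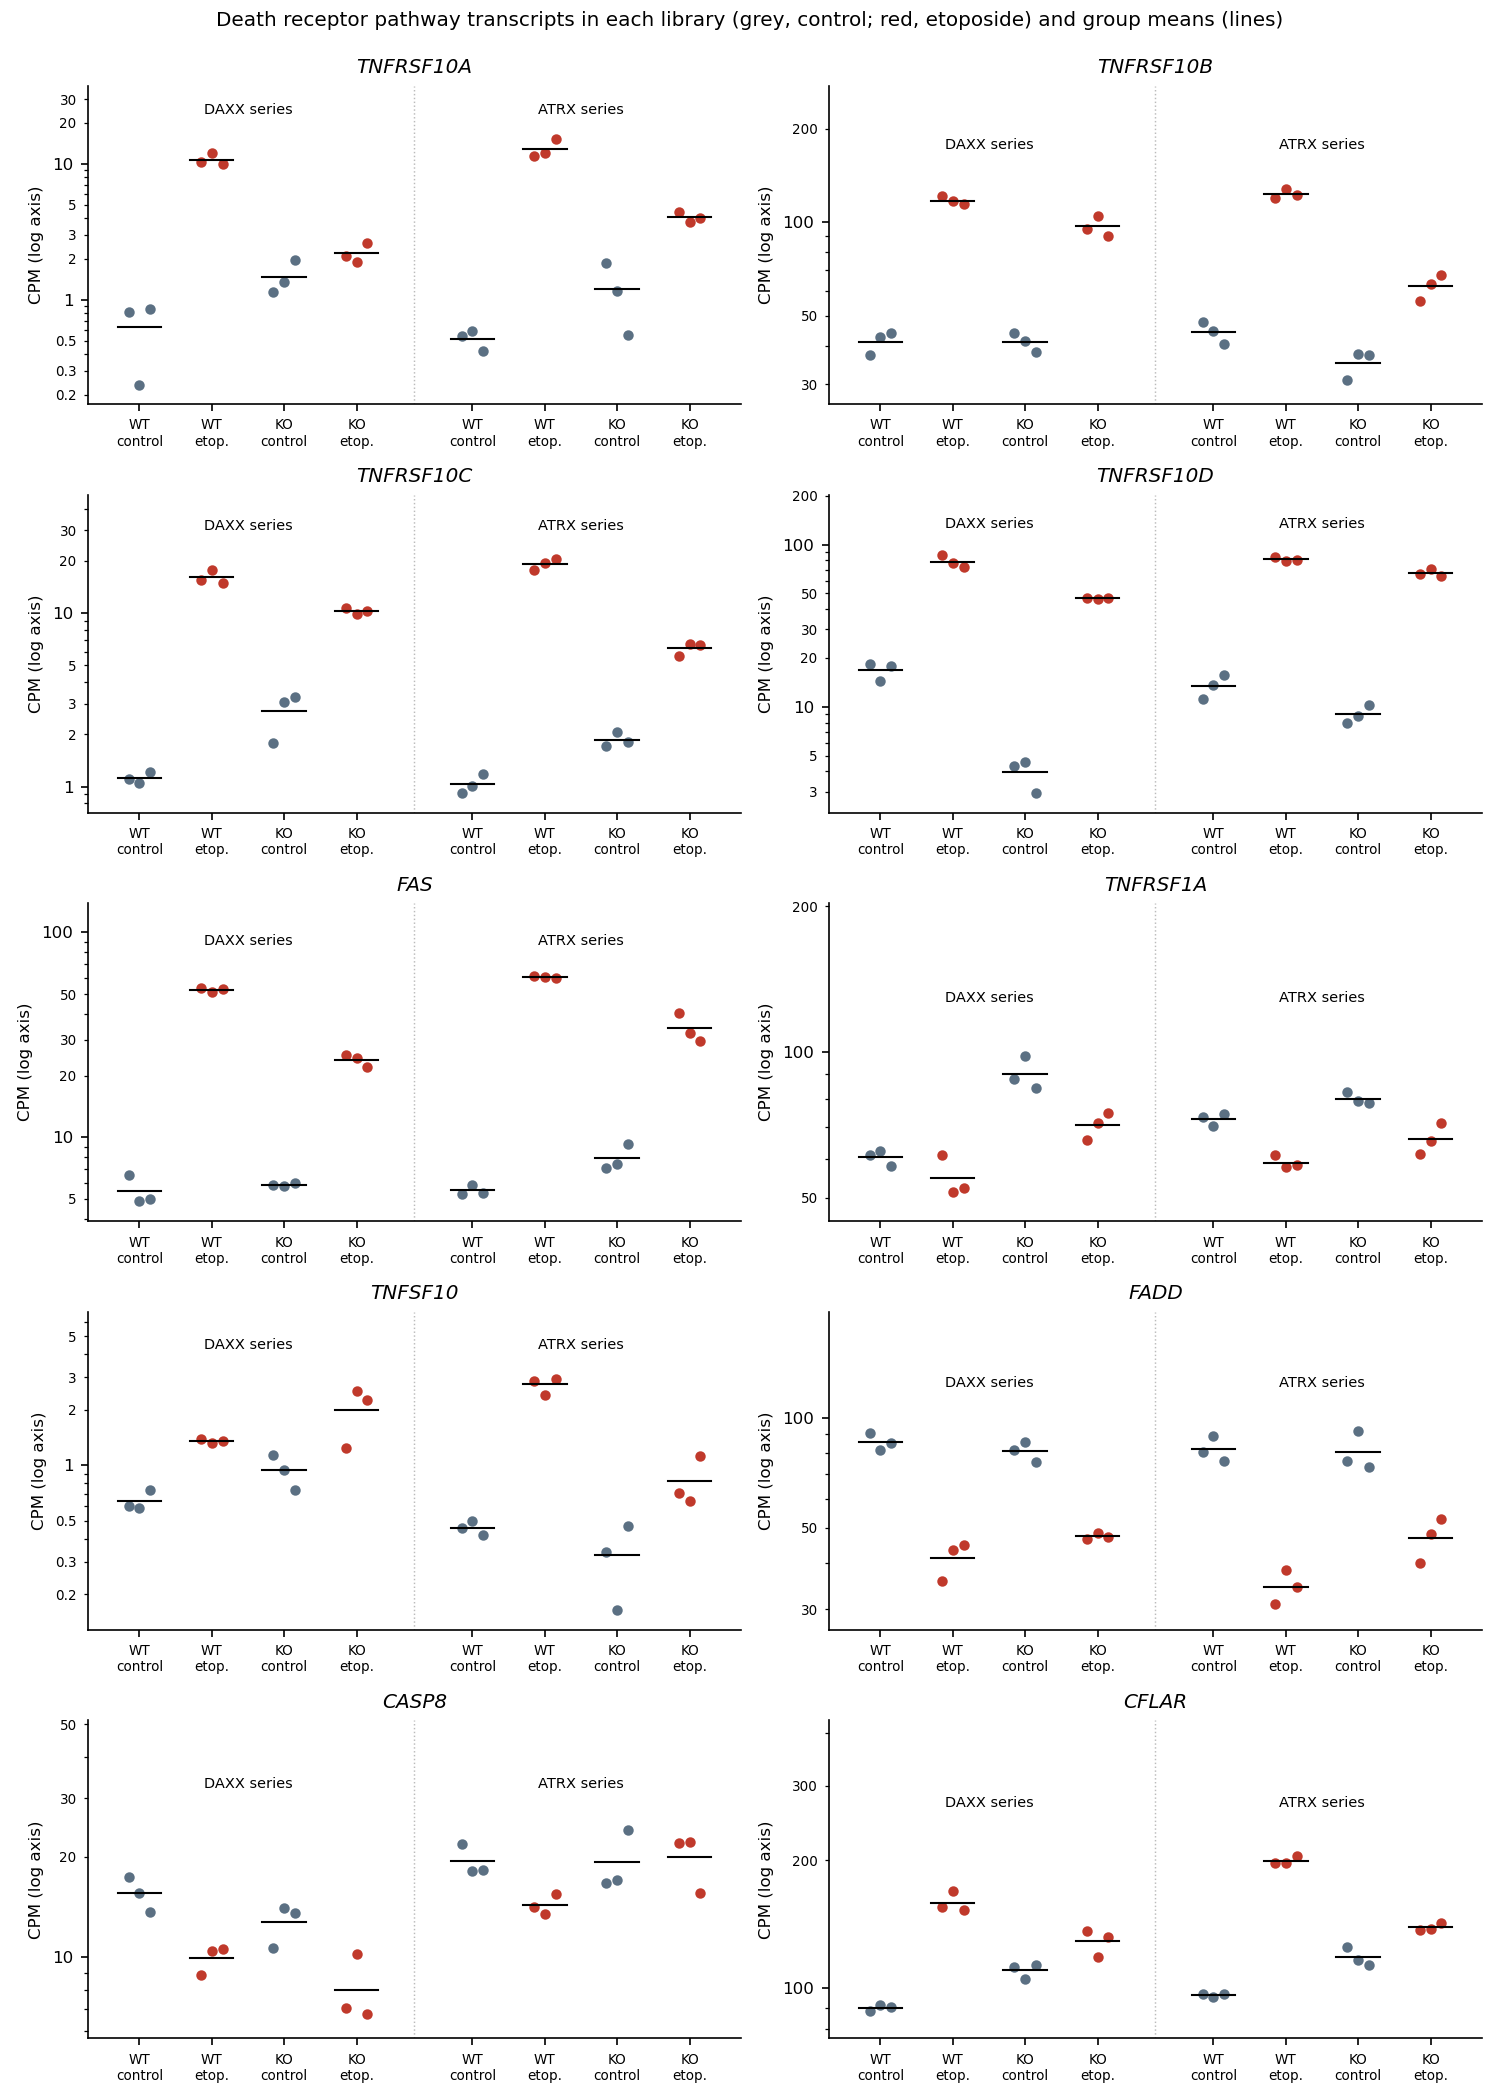
CPM on log axes for each of the 10 genes, 1 panel a gene, with 1 point a library (grey, control and red, etoposide) and a line at the mean of 3 libraries. FAS lies between 4.91 and 9.31 CPM in all control libraries and between 22.0 and 61.2 CPM in all etoposide libraries, and its etoposide libraries of both knockouts lie below those of WT.

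TNFRSF10A, the gene of DR4, lies at chr8:23047965-23082615 on the minus strand (GRCh37, GENCODE annotation). WT control libraries held 0.806, 0.234 and 0.854 CPM in the DAXX series and 0.536, 0.584 and 0.420 CPM in the ATRX series. With etoposide the WT values were 10.2, 11.97 and 9.89 CPM and 11.4, 11.98 and 15.2 CPM. Control and etoposide libraries of WT lay far apart, and the lowest WT control library rested on 2 counts. The log2 response of WT was 4.06 ± 0.33 (adjusted p = 2.11e-09) in the DAXX series and 4.63 ± 0.32 (adjusted p = 1.95e-09) in the ATRX series.

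DAXX_KO libraries held 1.14, 1.34 and 1.96 CPM of TNFRSF10A in control and 2.10, 1.89 and 2.59 CPM with etoposide. Their ranges overlapped, and the response of 0.56 ± 0.34 was not called (adjusted p = 0.172). ATRX_KO libraries held 1.88, 1.16 and 0.548 CPM in control and 4.42, 3.73 and 3.97 CPM with etoposide. Here the groups did not overlap and the response of 1.75 ± 0.30 was called (adjusted p = 0.000134). As a share of the log2 response of WT, the response of TNFRSF10A was 13.9% in DAXX_KO and 37.7% in ATRX_KO. The difference between the responses, tested as an interaction of knockout and etoposide, was -3.49 ± 0.50 (adjusted p = 8.40e-05) and -2.89 ± 0.48 (adjusted p = 0.000775).

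Before etoposide, TNFRSF10A was called higher in both knockouts than in WT, by 1.205 ± 0.42 in DAXX_KO (adjusted p = 0.0207) and 1.19 ± 0.41 in ATRX_KO (adjusted p = 0.0298). It held 2 to 22 counts in control libraries and passed the filter on low counts through the etoposide libraries. With only the control groups compared, 8 of the 10 genes were tested in each series, and TNFRSF10A was not among them. The ATRX_KO and WT control libraries overlapped. Both calls rested on single libraries. The DAXX_KO value was 0.83 (adjusted p = 0.0984) without WT control replicate 2 and 0.95 (adjusted p = 0.108) without DAXX_KO control replicate 3. In the ATRX series the call was lost without any of WT control replicates 1, 2 and 3 or ATRX_KO control replicates 1 and 2, with values from 0.71 (adjusted p = 0.213, without ATRX_KO control replicate 1) to 1.28. With etoposide the order was the opposite, and TNFRSF10A was lower than WT by -2.29 ± 0.27 in DAXX_KO (adjusted p = 7.49e-07) and -1.70 ± 0.24 in ATRX_KO (adjusted p = 2.31e-05), with no overlap of libraries.

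TNFRSF10B, which encodes the death receptor DR5, lies at chr8:22877646-22926544. Its control libraries held 37.2, 42.6 and 43.8 CPM in WT and 43.99, 41.3 and 38.1 CPM in DAXX_KO of the DAXX series. With etoposide they held 122, 117 and 114 CPM in WT and 95.1, 105 and 90.6 CPM in DAXX_KO. WT and DAXX_KO overlapped in control, with a difference of 0.00 ± 0.09 (adjusted p = 1.00), and separated with etoposide, where DAXX_KO was lower by -0.29 ± 0.08 (adjusted p = 0.00477). TNFRSF10B rose in both, by 1.53 ± 0.08 (adjusted p = 6.99e-12) in WT and 1.24 ± 0.08 (adjusted p = 3.26e-10) in DAXX_KO. The interaction of -0.29 ± 0.12 was not called (adjusted p = 0.121).

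ATRX series libraries held TNFRSF10B at 47.7, 44.6 and 40.5 CPM in WT control and 30.9, 37.5 and 37.4 CPM in ATRX_KO control. With etoposide it was at 120, 128 and 123 CPM in WT and 55.8, 63.1 and 67.7 CPM in ATRX_KO, so that every ATRX_KO etoposide library lay above the WT control and below the WT etoposide libraries. The response was 1.499 ± 0.09 in WT (adjusted p = 5.86e-10) and 0.81 ± 0.10 in ATRX_KO (adjusted p = 2.87e-06), with an interaction of -0.69 ± 0.13 (adjusted p = 0.00239). ATRX_KO was lower than WT in control by -0.32 ± 0.10 (adjusted p = 0.0135), a call lost without WT control replicate 1 (-0.26, adjusted p = 0.0803) or ATRX_KO control replicate 1 (-0.23, adjusted p = 0.0861). It was lower with etoposide by -1.02 ± 0.09 (adjusted p = 1.54e-07). The 3′ end of TNFRSF10B overlaps RHOBTB2 on the opposite strand, which was given 114 to 630 counts a library where TNFRSF10B was given 308 to 1379. The strand setting of the counting is not given in the sources used here, so reads of this pair may have been exchanged.

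TNFRSF10C encodes the decoy receptor DcR1, which is held in the membrane by a lipid anchor and has no death domain. Its gene spans chr8:22960434-22974958 on the plus strand. WT control libraries held 1.11, 1.05 and 1.22 CPM in the DAXX series and 0.919, 1.00 and 1.18 CPM in the ATRX series, and WT etoposide libraries held 15.6, 17.8 and 14.9 CPM and 17.8, 19.4 and 20.7 CPM. TNFRSF10C thus rose by 3.84 ± 0.22 (adjusted p = 1.796e-11) and 4.23 ± 0.19 (adjusted p = 6.28e-12), from WT control libraries of 9 to 14 counts.

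DAXX_KO started higher and ended lower than WT, with TNFRSF10C at 1.78, 3.08 and 3.30 CPM in control and 10.7, 9.88 and 10.3 CPM with etoposide. ATRX_KO did so as well, with 1.705, 2.07 and 1.799 CPM in control and 5.65, 6.66 and 6.59 CPM with etoposide. No knockout library overlapped the WT libraries of the same condition. In control the differences from WT were 1.26 ± 0.29 (adjusted p = 0.00102) and 0.85 ± 0.23 (adjusted p = 0.00937), and with etoposide they were -0.66 ± 0.16 (adjusted p = 0.00211) and -1.64 ± 0.15 (adjusted p = 1.20e-07). The responses of 1.92 ± 0.20 and 1.75 ± 0.18 were called in both knockouts, and the interactions were -1.92 ± 0.33 (adjusted p = 0.000585) and -2.48 ± 0.27 (adjusted p = 2.29e-05).

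TNFRSF10D, the gene of the decoy receptor DcR2 with a truncated death domain, spans chr8:22993101-23021540 and was lower than WT in both knockouts already in control. In the DAXX series WT control libraries held 18.4, 14.5 and 17.8 CPM, and DAXX_KO control libraries held 4.32, 4.56 and 2.93 CPM. DAXX_KO was lower than WT by -2.11 ± 0.16 (adjusted p = 1.59e-09) already without etoposide. With etoposide the values were 85.9, 76.7 and 73.2 CPM in WT and 47.2, 46.5 and 46.9 CPM in DAXX_KO, a difference of -0.76 ± 0.10 (adjusted p = 1.96e-06). The response was therefore larger in DAXX_KO, at 3.58 ± 0.14 (adjusted p = 8.62e-14), than in WT, at 2.23 ± 0.11 (adjusted p = 9.41e-13), with an interaction of 1.35 ± 0.19 (adjusted p = 7.31e-05). Of the 10 genes it was the 1 with an interaction called above 0 in the DAXX series.

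TNFRSF10D in the ATRX series was at 11.1, 13.7 and 15.6 CPM in WT control and 7.93, 8.84 and 10.2 CPM in ATRX_KO control, and ATRX_KO was lower by -0.57 ± 0.13 (adjusted p = 0.00172). With etoposide the libraries held 83.4, 79.8 and 80.6 CPM in WT and 65.7, 70.9 and 64.1 CPM in ATRX_KO. The groups did not overlap in either condition. The responses were 2.62 ± 0.11 (adjusted p = 4.21e-12) and 2.88 ± 0.12 (adjusted p = 4.78e-12), and the interaction of 0.26 ± 0.16 was not called (adjusted p = 0.302). The difference with etoposide, -0.31 ± 0.10 (adjusted p = 0.0164), lost its call without any of WT etoposide replicates 1, 2 and 3 (-0.26, -0.30 and -0.29) or ATRX_KO etoposide replicate 3 (-0.27), and with scaling by library totals alone (-0.21, adjusted p = 0.0911).

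The makeup of the TRAIL receptor transcripts moved with these changes. Of the counts of the 4 receptors, the decoys TNFRSF10C and TNFRSF10D took 30.2 ± 3.7% in WT control and 42.5 ± 0.98% in WT etoposide libraries of the DAXX series (SD, n = 3). In DAXX_KO they took 13.5 ± 1.6% in control and 36.6 ± 1.9% with etoposide. The ATRX series gave 24.5 ± 4.6% and 42.4 ± 1.0% in WT and 22.9 ± 1.1% and 52.5 ± 2.5% in ATRX_KO. Decoys thus took a larger share with etoposide in all 4 pairs of groups, with no overlap of libraries, and their lowest and highest shares were in DAXX_KO control and ATRX_KO etoposide. Summed over the 4 receptors, the level was 59.9 ± 3.3 and 59.3 ± 1.4 CPM in the WT control groups and 223 ± 11 and 237 ± 3.7 CPM with etoposide. It went from 49.3 ± 2.6 to 156 ± 6.5 CPM in DAXX_KO and from 47.3 ± 4.2 to 139 ± 6.8 CPM in ATRX_KO. These are shares of counts at 3′ ends, not divided by length, and no test was run on them.

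**Figure D2:**
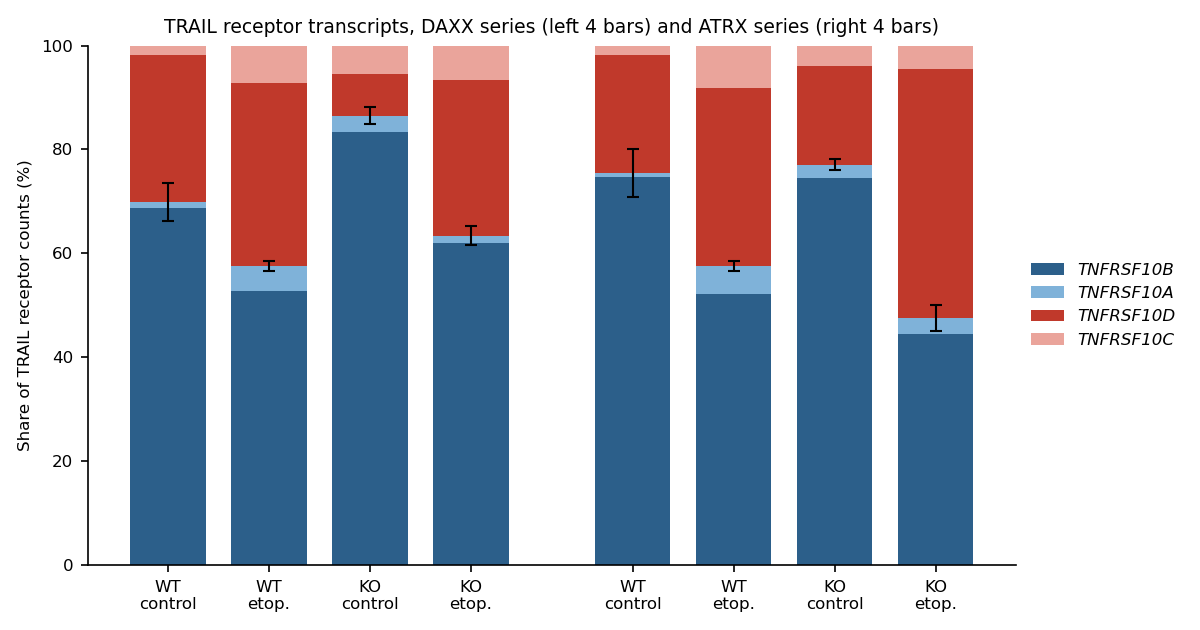
Mean share of each TRAIL receptor in the counts of all 4 (percent, stacked from 0 to 100) for the 8 groups, with the death receptors TNFRSF10B and TNFRSF10A in blue and the decoys TNFRSF10D and TNFRSF10C in red. The black bars are the SD of the decoys' joint share over 3 libraries, which goes from 13.5% in DAXX_KO control to 52.5% in ATRX_KO etoposide.

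FAS, the receptor of FAS ligand, lies at chr10:90750414-90775542 on the plus strand. Its control libraries were at 6.55, 4.91 and 5.002 CPM in WT and 5.85, 5.77 and 5.99 CPM in DAXX_KO, and its etoposide libraries were at 53.3, 51.2 and 52.9 CPM and 25.2, 24.3 and 22.0 CPM. Control groups overlapped and etoposide groups did not. FAS rose by 3.26 ± 0.12 in WT (adjusted p = 1.52e-14) and by 2.02 ± 0.13 in DAXX_KO (adjusted p = 9.87e-11), and the interaction was -1.23 ± 0.19 (adjusted p = 0.000153). With etoposide, FAS was lower in DAXX_KO than in WT by -1.15 ± 0.10 (adjusted p = 1.11e-08), and in control the difference of 0.08 ± 0.16 was not called (adjusted p = 0.714).

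ATRX series libraries held FAS at 5.29, 5.84 and 5.37 CPM in WT control and 7.08, 7.43 and 9.31 CPM in ATRX_KO control, higher in ATRX_KO by 0.54 ± 0.15 (adjusted p = 0.0101). That call was lost without ATRX_KO control replicate 3 (0.41, adjusted p = 0.0606). With etoposide it was at 61.2, 60.5 and 59.8 CPM in WT and 40.3, 32.4 and 29.5 CPM in ATRX_KO, lower in ATRX_KO by -0.86 ± 0.11 (adjusted p = 8.87e-06). The order of the groups was thus reversed by etoposide, without overlap in either condition. The responses were 3.48 ± 0.14 (adjusted p = 1.36e-12) and 2.08 ± 0.13 (adjusted p = 1.15e-09), with an interaction of -1.40 ± 0.19 (adjusted p = 0.000146). As a share of the log2 response of WT, FAS kept 62.2% in DAXX_KO and 59.9% in ATRX_KO.

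Since p53 is known to act on FAS through a site in the gene's start region, the first 2000 bases of each gene were searched in GRCh37 for a p53 site, a palindrome of 20 letters made of a pair of p53 half-sites, with both half-site cores intact and at most 2 other mismatches. FAS and TNFRSF10B each held 1 such sequence and the 8 other genes held 0, where 0.7% of 19391 protein-coding genes (135) held at least 1. The sequence in FAS lies at chr10:90751066-90751085, 652 bases after the annotated start of the gene. It is intronic in 10 of its 16 annotated transcripts and exonic in 2. That in TNFRSF10B begins 390 bases after the start and is exonic in 0 of 8 transcripts. The FAS sequence is shown, on the plus strand, because it lies in the start region of FAS through which p53 is known to act, and the 20 matched bases are in capitals.
FAS: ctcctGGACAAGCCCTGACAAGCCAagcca
A match of letters is a description and not evidence that p53 is bound there. FAS and TNFRSF10B were known p53 targets before the search, so the share over all genes is no test of the 10 genes. Genes with 0 may hold sites outside this window or with more mismatches.

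TNFRSF1A, the TNF receptor with a death domain, lies at chr12:6437923-6451280 and was not called higher with etoposide in any line. In the DAXX series it was at 61.4, 62.3 and 58.1 CPM in WT control and 61.3, 51.3 and 52.3 CPM in WT etoposide libraries, which overlapped, and the change of -0.13 ± 0.09 was not called (adjusted p = 0.231). DAXX_KO was higher, at 88.0, 98.3 and 84.2 CPM in control and 65.7, 71.5 and 74.7 CPM with etoposide. The difference from WT was 0.57 ± 0.09 (adjusted p = 1.29e-05) in control and 0.35 ± 0.09 (adjusted p = 0.00209) with etoposide. Relative to the 30 tested genes on each side of TNFRSF1A, whose medians were 0.22 and 0.14, these differences were 0.36 and 0.22. TNFRSF1A fell with etoposide in DAXX_KO by 0.34 on the log2 scale, with an SE of 0.08 (adjusted p = 0.00184).

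The ATRX series gave TNFRSF1A values of 73.6, 70.3 and 74.4 CPM in WT control and 61.1, 57.8 and 58.4 CPM in WT etoposide libraries. ATRX_KO held 82.6, 79.1 and 78.3 CPM in control and 61.5, 65.3 and 71.5 CPM with etoposide. All etoposide libraries lay beneath the control libraries of the same line. TNFRSF1A fell in WT (-0.28 ± 0.08, adjusted p = 0.00395) and in ATRX_KO (-0.29 ± 0.07, adjusted p = 0.00396) alike, and the interaction was -0.01 ± 0.11 (adjusted p = 0.979). ATRX_KO and WT differed by 0.14 ± 0.07 in control (adjusted p = 0.139) and 0.13 ± 0.08 with etoposide (adjusted p = 0.158), neither called. With library totals alone both were called (0.20 with adjusted p = 0.0424, and 0.23 with adjusted p = 0.0207).

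**Figure D3:**
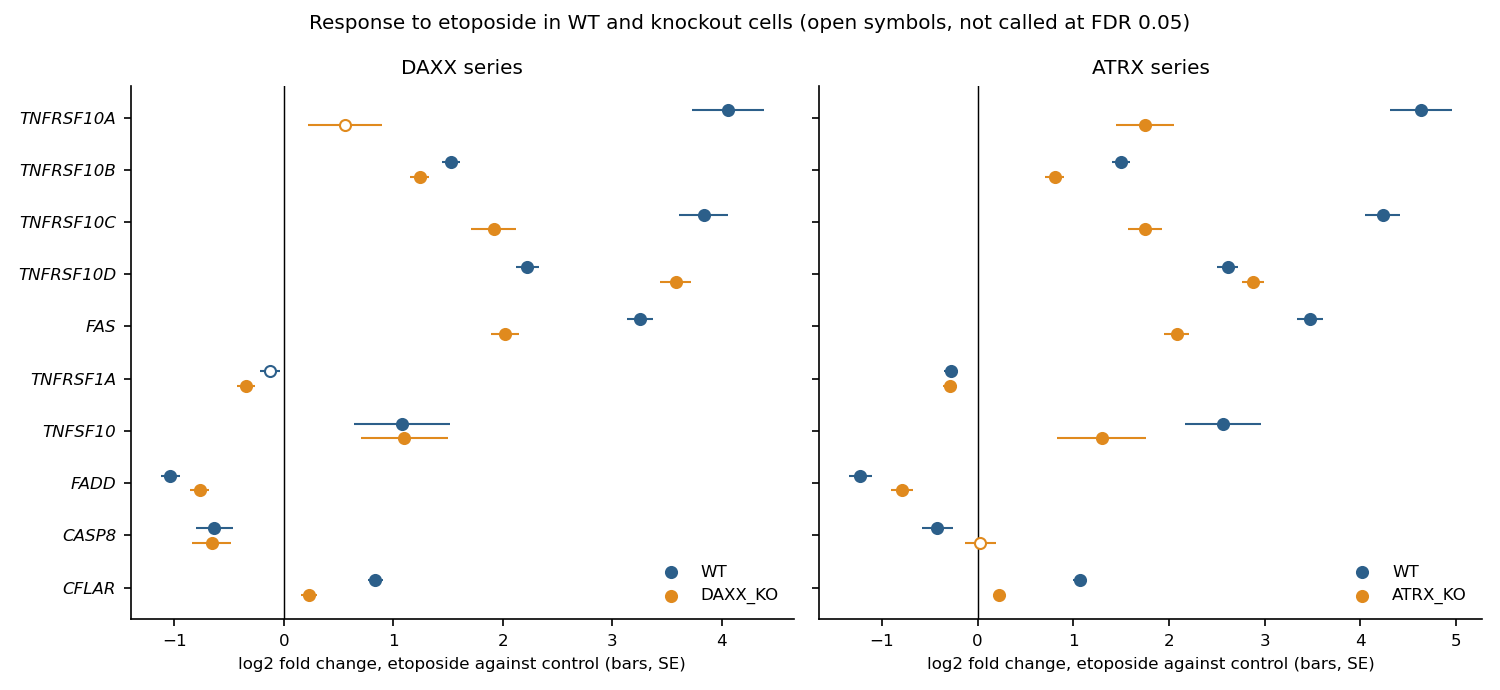
Log2 fold change with etoposide for the 10 genes in WT (blue) and knockout cells (orange) of the DAXX series (left) and the ATRX series (right), with SE bars and open symbols where the change was not called. TNFRSF10A, TNFRSF10C, FAS and CFLAR lie further left in the knockout than in WT in both panels, and TNFRSF10D lies further right, by 1.35 in the DAXX series and by an uncalled 0.26 in the ATRX series.

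TNFSF10, the gene of TRAIL itself, lies at chr3:172223298-172241265 and was close to the limit of detection, at 2 to 32 counts a library. It held 2 to 9 counts in control libraries and passed the filter on low counts through the etoposide libraries. WT control libraries held 0.604, 0.585 and 0.732 CPM in the DAXX series and 0.460, 0.501 and 0.420 CPM in the ATRX series, and WT etoposide libraries held 1.39, 1.32 and 1.36 CPM and 2.88, 2.42 and 2.94 CPM. It rose in WT by 1.08 ± 0.44 (adjusted p = 0.0405) and 2.57 ± 0.40 (adjusted p = 2.76e-05). DAXX_KO held 1.14, 0.939 and 0.733 CPM in control and 1.24, 2.52 and 2.26 CPM with etoposide, a response of 1.103 ± 0.40 (adjusted p = 0.0239).

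ATRX_KO held 0.341, 0.165 and 0.469 CPM of TNFSF10 in control and 0.707, 0.645 and 1.12 CPM with etoposide, a response of 1.30 ± 0.47 (adjusted p = 0.0290). With etoposide every ATRX_KO library was below every WT library, and the difference of -1.74 ± 0.36 was called (adjusted p = 0.000837). No interaction was called for TNFSF10 (0.02 with adjusted p = 0.995, and -1.27 ± 0.65 with adjusted p = 0.206). Except in WT of the ATRX series, the calls of its response were lost with the DESeq2 Wald test, where the adjusted p was 0.0896 in WT of the DAXX series, 0.0618 in DAXX_KO and 0.0538 in ATRX_KO, and without a filter on low counts. They were lost as well without single libraries. In WT of the DAXX series the value was 1.03 to 1.17 without any 1 of the 6 WT libraries and 1.08 without DAXX_KO etoposide replicate 3. In DAXX_KO it was 1.105 and 0.95 without control replicates 2 and 3 and 0.90 and 1.01 without etoposide replicates 2 and 3. In ATRX_KO it was 1.32 and 0.98 without control replicates 1 and 2 and 1.00 without etoposide replicate 3.

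For the adaptor and the caspase the change was opposite in sign. FADD, the adaptor that joins FAS and the TRAIL receptors to procaspase-8, lies at chr11:70049402-70053496. In WT it went from 90.8, 81.5 and 85.0 CPM to 35.8, 43.6 and 45.0 CPM in the DAXX series and from 80.5, 89.0 and 76.1 CPM to 30.9, 38.4 and 34.4 CPM in the ATRX series. It fell by 1.04 (SE 0.09, adjusted p = 4.45e-09) and 1.23 (SE 0.12, adjusted p = 1.04e-07) on the log2 scale, and no etoposide library reached a control library. In DAXX_KO it went from 81.8, 85.7 and 75.8 CPM to 46.6, 48.4 and 47.3 CPM, and in ATRX_KO from 76.2, 92.0 and 73.4 CPM to 40.0, 48.1 and 52.9 CPM.

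FADD fell in the knockouts too, by 0.77 (SE 0.09, adjusted p = 3.55e-07) in DAXX_KO and 0.79 (SE 0.11, adjusted p = 2.23e-05) in ATRX_KO. Control libraries of WT and knockout overlapped in each series, with differences of -0.08 ± 0.08 (adjusted p = 0.424) and -0.02 ± 0.11 (adjusted p = 0.905). With etoposide FADD was higher in ATRX_KO than in WT by 0.42 ± 0.12 (adjusted p = 0.00827), whereas the difference of 0.19 ± 0.09 in DAXX_KO was not called (adjusted p = 0.0952) although the libraries did not overlap, and was called with library totals alone (0.26, adjusted p = 0.0255). Neither interaction was called (0.27 ± 0.12 with adjusted p = 0.164, and 0.44 ± 0.16 with adjusted p = 0.0785). The latter was called without ATRX_KO control replicate 2 (0.55) or ATRX_KO etoposide replicate 1 (0.54).

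CASP8 lies at chr2:202098166-202226559 and encodes the caspase that starts the cascade. Its WT libraries went from 17.4, 15.6 and 13.7 CPM to 8.85, 10.4 and 10.6 CPM in the DAXX series and from 21.9, 18.2 and 18.2 CPM to 14.1, 13.5 and 15.5 CPM in the ATRX series. CASP8 fell by 0.63 (SE 0.17, adjusted p = 0.00296) and 0.42 (SE 0.16, adjusted p = 0.0342), the latter a call lost without WT control replicate 1 (-0.32), without WT etoposide replicates 1 or 2 (-0.43 and -0.40), with at least 10 counts required in every library (-0.35, adjusted p = 0.0640) and with library totals alone (-0.39, adjusted p = 0.0514). DAXX_KO went from 10.7, 14.1 and 13.6 CPM to 7.04, 10.2 and 6.77 CPM, a fall of 0.66 (SE 0.18, adjusted p = 0.00346), while ATRX_KO went from 16.7, 17.1 and 24.1 CPM to 22.0, 22.1 and 15.6 CPM, overlapping groups with a change of 0.03 ± 0.16 (adjusted p = 0.893).

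With etoposide CASP8 was higher in ATRX_KO than in WT, by 0.44 ± 0.16 (adjusted p = 0.0339). That call was lost without WT etoposide replicates 1 or 2 (0.46 and 0.43) or ATRX_KO etoposide replicates 1 or 2 (0.37 and 0.36). DAXX_KO and WT differed by -0.31 ± 0.18 with etoposide (adjusted p = 0.153) and by -0.29 ± 0.16 in control (adjusted p = 0.148), and ATRX_KO and WT differed in control by -0.01 ± 0.16 (adjusted p = 0.985). The interactions, -0.03 ± 0.24 (adjusted p = 0.965) and 0.45 ± 0.23 (adjusted p = 0.198), were not called, and neither was the difference between them, -0.50 ± 0.35 (adjusted p = 0.503). Of these CASP8 values, the DAXX_KO difference with etoposide was called without DAXX_KO etoposide replicate 2 (-0.53, adjusted p = 0.02255) and the ATRX_KO interaction without ATRX_KO control replicate 3 (0.64, adjusted p = 0.0431).

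CFLAR, the gene of the caspase-8 inhibitor c-FLIP, is a close neighbour of CASP8 at chr2:201980877-202041410. In WT it went from 88.4, 91.1 and 90.5 CPM to 155, 169 and 153 CPM in the DAXX series, and from 97.0, 95.3 and 97.0 CPM to 197, 197 and 205 CPM in the ATRX series. CFLAR rose in WT by 0.84 ± 0.07 (adjusted p = 5.25e-09) and 1.07 ± 0.07 (adjusted p = 4.17e-10). DAXX_KO started higher, at 113, 105 and 113 CPM, and reached 136, 118 and 132 CPM, and ATRX_KO went from 125, 117 and 114 CPM to 137, 138 and 143 CPM.

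In control, CFLAR was higher than WT by 0.29 ± 0.07 in DAXX_KO (adjusted p = 0.00208) and 0.30 ± 0.07 in ATRX_KO (adjusted p = 0.00145). With etoposide it was lower by -0.31 ± 0.07 (adjusted p = 0.000924) and -0.55 ± 0.06 (adjusted p = 3.14e-06). All these groups were free of overlap. The knockouts responded little, DAXX_KO by 0.23 ± 0.07 (adjusted p = 0.0101) and ATRX_KO by 0.22 ± 0.07 (adjusted p = 0.00956), or 27.6% and 20.7% of the log2 response of WT, and the interactions were -0.61 ± 0.10 (adjusted p = 0.000436) and -0.85 ± 0.09 (adjusted p = 2.18e-05). The response in DAXX_KO lost its call without DAXX_KO control replicate 2 (0.20), without DAXX_KO etoposide replicate 1 (0.19) and with library totals alone (0.13, adjusted p = 0.138). That in ATRX_KO lost its call without a filter on low counts (0.19, adjusted p = 0.120).

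Of the 10 genes, CFLAR and FAS are those outside the TRAIL receptors with an interaction called below 0 in both series. Their upstream sequences are shown because p53 and NF-kB are the factors best known to act on this pathway. The table of RefSeq promoters (GRCh38.p14) held 6 of the 10 genes, FAS, TNFRSF1A, TNFSF10, FADD, CASP8 and CFLAR. In the 300 bases from 250 before to 50 after the start, both strands were searched for the p53 half-site, the NF-kB site, the GC box GGGCGG, the box called CCAAT, the AP-1 site TGANTCA and the TATA box TATAAA, which 6.63%, 5.91%, 45.0%, 34.6%, 7.71% and 11.5% of 35116 such promoters held. None of the 6 held a p53 half-site. Counted from the start site, CFLAR held an NF-kB site at -97 that overlaps a GC box at -101, and FAS held an AP-1 site at -242 and a GC box at -60. CASP8 held a GC box, FADD a pair of GC boxes and an AP-1 site, TNFRSF1A a CCAAT box on the reverse strand and TNFSF10 a TATA box at -31. The 250 bases before the start are given for FAS (chr10:88990548-88990797, plus strand) and CFLAR (chr2:201118466-201118715, plus strand), with those matches in capitals.
FAS: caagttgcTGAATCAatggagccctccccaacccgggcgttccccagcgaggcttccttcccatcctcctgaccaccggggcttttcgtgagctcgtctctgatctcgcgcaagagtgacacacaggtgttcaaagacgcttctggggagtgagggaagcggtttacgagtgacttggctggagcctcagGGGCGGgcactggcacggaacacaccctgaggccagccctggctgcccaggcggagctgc
CFLAR: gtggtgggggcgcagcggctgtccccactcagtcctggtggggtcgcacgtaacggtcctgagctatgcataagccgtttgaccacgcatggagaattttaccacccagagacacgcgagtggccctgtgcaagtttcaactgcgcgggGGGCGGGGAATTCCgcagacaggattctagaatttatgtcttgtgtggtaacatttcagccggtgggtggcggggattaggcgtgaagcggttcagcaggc
These letters do not show whether a factor was bound.

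Because CFLAR rose and CASP8 and FADD fell, the ratios of their counts within a library moved in WT. CFLAR over CASP8 was 5.85 ± 0.78 in WT control and 16.1 ± 1.6 in WT etoposide libraries of the DAXX series, and 4.996 ± 0.49 and 13.9 ± 0.69 in the ATRX series (SD, n = 3). It was 8.78 ± 1.6 and 16.8 ± 4.5 in DAXX_KO and 6.34 ± 1.4 and 7.20 ± 1.7 in ATRX_KO. The ratio with etoposide was above that in control without overlap in WT of both series and in DAXX_KO, and the groups overlapped in ATRX_KO. FADD over CFLAR went from 0.954 ± 0.067 to 0.261 ± 0.032 and from 0.850 ± 0.076 to 0.173 ± 0.020 in WT, from 0.737 ± 0.073 to 0.369 ± 0.035 in DAXX_KO and from 0.681 ± 0.095 to 0.337 ± 0.041 in ATRX_KO. With etoposide the ratio in each knockout lay above that in WT, without overlap. No test was run on the ratios.

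**Figure D4:**
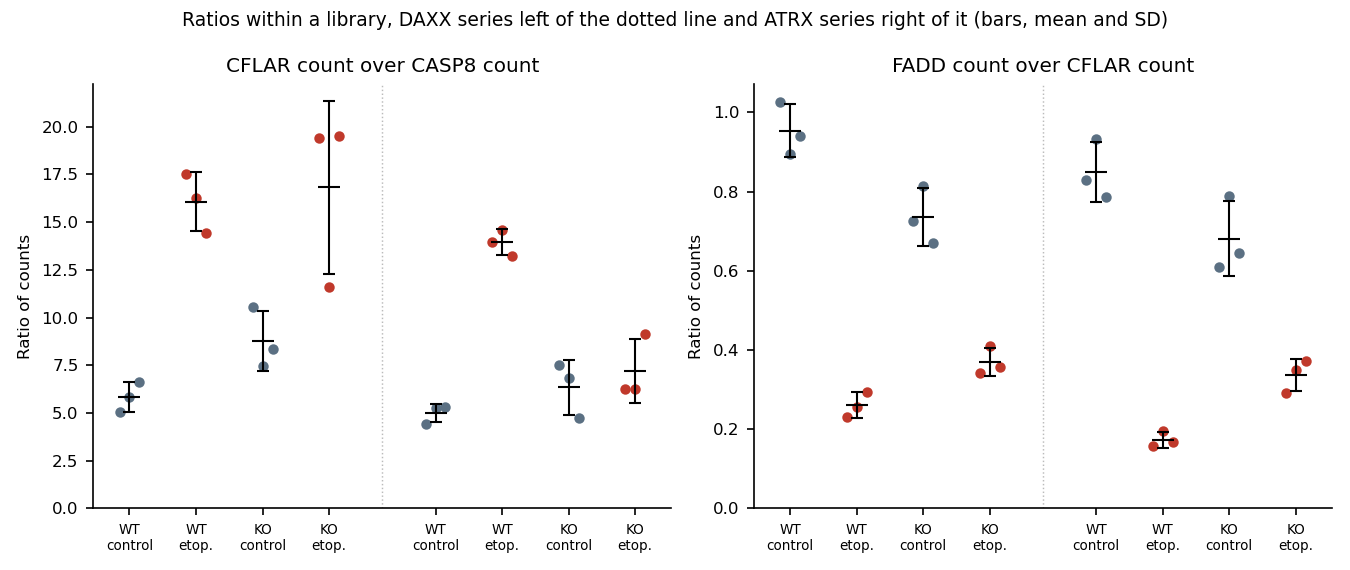
Ratio of counts within a library for CFLAR over CASP8 (left) and FADD over CFLAR (right) in the 8 groups, with a point a library and bars at the mean and SD of 3 libraries. CFLAR over CASP8 reaches a mean of 13.9 to 16.8 with etoposide in WT and DAXX_KO and 7.20 in ATRX_KO.

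Across the 10 genes the response to etoposide was called for 9 in DAXX_KO (6 higher and 3 lower, where 26.8% of all genes were higher, 27.8% lower and 54.5% called in either direction) and 9 in ATRX_KO (7 higher and 2 lower, where 24.3%, 25.2% and 49.5% were), with medians of 0.83 and 1.05. With only the compared groups, 8 of 9 tested genes were called in each knockout, and TNFSF10 was not tested. In control libraries, 5 genes differed between DAXX_KO and WT (4 higher and 1 lower, beside 26.7% of all genes higher, 26.6% lower and 53.4% called) and 6 between ATRX_KO and WT (4 higher and 2 lower, beside 20.8%, 21.0% and 41.8%). TNFRSF10C and CFLAR were higher and TNFRSF10D was lower in both knockouts. TNFRSF10A was called higher in both as well, but these calls were lost without single libraries. With only the control groups compared it was not tested, and 3 of 8 tested genes were called higher in each series. With etoposide the balance was on the other side, with 1 gene higher and 6 lower in DAXX_KO (27.9% of all genes higher, 25.2% lower and 53.0% called in either direction) and 2 higher and 7 lower in ATRX_KO (23.0%, 22.9% and 45.9%). TNFRSF10A, TNFRSF10B, TNFRSF10C, TNFRSF10D, FAS and CFLAR were lower in both. The TNFRSF10D call in ATRX_KO was lost without single libraries and with library totals alone. Relative to the 30 tested genes on each side, TNFRSF10D in ATRX_KO (0.34) and CFLAR in DAXX_KO (0.01) were not lower. Groups whose libraries did not overlap are common in these data, at 66.7% (WT, DAXX series), 58.3% (DAXX_KO), 68.7% (WT, ATRX series) and 53.8% (ATRX_KO) of all genes tested between control and etoposide. Between knockout and WT the share was 60.0% (DAXX_KO) and 50.9% (ATRX_KO) in control and 58.3% and 55.2% with etoposide.

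The interaction was called below 0 for 4 of the 10 genes in the DAXX series (TNFRSF10A, TNFRSF10C, FAS and CFLAR) and above 0 for 1, where 5.79% of all genes were below, 8.38% above and 14.2% called. In the ATRX series it was called below 0 for 5 genes (the same 4 and TNFRSF10B) and above 0 for 0, where 7.64% of all genes were below, 8.36% above and 16.0% called. With the DESeq2 Wald test, with no filter on low counts and with all 24 libraries in one model, 6 genes were called in the ATRX series, 5 below and 1 above 0. The gene above 0 was FADD in each (0.46, 0.44 and 0.47). With library totals alone 6 were called in the DAXX series, 5 below 0 with TNFRSF10B among them (-0.40, adjusted p = 0.0300) and 1 above. Among genes called higher with etoposide in WT, an interaction was called below 0 for 15.2% (DAXX series) and 21.2% (ATRX series). Of the 10 genes it was called below 0 for 4 of 7 and 5 of 7. Since the response and the interaction share the WT libraries, these shares are descriptions.

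The lines were then compared with each other in a model of all 24 libraries. The effect of the knockout in control differed between DAXX_KO and ATRX_KO for 2 of the 10 genes, 1 higher and 1 lower (17.0% of 16674 tested genes higher, 17.2% lower and 34.1% called), with TNFRSF10D more reduced in DAXX_KO (-1.54 ± 0.21, adjusted p = 2.40e-06) and TNFRSF1A more raised (0.43 ± 0.11, adjusted p = 0.00311). With etoposide it differed for 5, 3 higher and 2 lower (17.7%, 16.8% and 34.5%). TNFRSF10B (0.71 ± 0.12, adjusted p = 5.74e-05), TNFRSF10C (0.96 ± 0.21, adjusted p = 0.000698) and TNFSF10 (2.29 ± 0.49, adjusted p = 0.000691) were lower relative to WT in ATRX_KO than in DAXX_KO. Values were also taken relative to the 30 tested genes on each side. On that scale the differences from WT with etoposide in DAXX_KO and ATRX_KO were -0.33 and -0.39 for TNFRSF10B and -0.73 and -1.01 for TNFRSF10C. These lie closer to each other than without the neighbours, as do those of CASP8 (0.00099 and 0.51). Those of TNFRSF10D (-0.80 and 0.34) and TNFSF10 (0.76 and -1.79) lie further apart. The lines were not tested against each other on that scale. TNFRSF10D (-0.47 ± 0.14, adjusted p = 0.0113) and CASP8 (-0.78 ± 0.25, adjusted p = 0.0187) were lower relative to WT in DAXX_KO than in ATRX_KO. The CASP8 call was lost without DAXX_KO etoposide replicates 1 or 3 (-0.70 and -0.67) or ATRX_KO etoposide replicate 2 (-0.69). Against WT itself, CASP8 was not called in DAXX_KO (-0.31, adjusted p = 0.153) and was called higher in ATRX_KO (0.44, adjusted p = 0.0339).

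The interaction itself differed between the lines for TNFRSF10D alone, by 1.07 ± 0.26 (adjusted p = 0.0182, where 1.92% of all genes were higher, 1.08% lower and 3.00% called), and without DAXX_KO control replicate 3 the value was 0.89 and was not called (adjusted p = 0.0629). The response of WT did not pass the test of a difference between the series for any of the 10 genes (0 called with edgeR and 0 with DESeq2, where 3.15% of all genes were called), while 3 (TNFRSF10D, TNFSF10 and CFLAR) had an unadjusted p under 0.05. For TNFRSF10A, FAS and CFLAR the difference between the interactions of the lines was -0.64 ± 0.71, 0.14 ± 0.26 and 0.22 ± 0.13, none of them called (adjusted p = 0.709, 0.844 and 0.409).

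The 4 TRAIL receptor genes form a cluster on chromosome 8, and the genes around them differed between ATRX_KO and WT as well. Over the 60 tested genes nearest to each receptor gene, 30 on each side, the median difference of ATRX_KO from WT was -0.53 to -0.47 in control, with 33 or 34 of 60 called lower, and -0.65 to -0.62 with etoposide, with 35 or 36 called lower. The medians of all genes were 0.02 and 0.01. Relative to these neighbours, ATRX_KO with etoposide was lower by -1.07 for TNFRSF10A, -0.39 for TNFRSF10B and -1.01 for TNFRSF10C, and higher by 0.34 for TNFRSF10D. In control the difference relative to the neighbours was 0.17 in place of -0.32 for TNFRSF10B, -0.10 in place of -0.57 for TNFRSF10D, 1.35 in place of 0.85 for TNFRSF10C and 1.71 in place of 1.19 for TNFRSF10A. The neighbours' part in the differences was not tested. In DAXX_KO the same neighbours had medians of 0.04 to 0.14, and in the interactions they had medians of -0.14 to -0.12 (DAXX series) and -0.06 (ATRX series), beside values of -3.49 and -2.89 for TNFRSF10A.

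The neighbours of CFLAR and CASP8 on chromosome 2 were lower in DAXX_KO than in WT, with medians of -0.36 in control and -0.32 with etoposide. CFLAR in DAXX_KO with etoposide, at -0.31, was level with them (0.01 relative to the neighbours), and in control it stood 0.66 above them. CASP8 in DAXX_KO, at -0.29 in control and -0.31 with etoposide and not called in either, stood at 0.08 and 0.00099 relative to them. The neighbours of FADD in DAXX_KO were at 0.38 in control and 0.33 with etoposide, and relative to them FADD was at -0.46 in place of -0.08 and at -0.15 in place of 0.19. In the interaction the neighbours of CFLAR were at 0.10, where CFLAR was at -0.61.

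**Figure D5:**
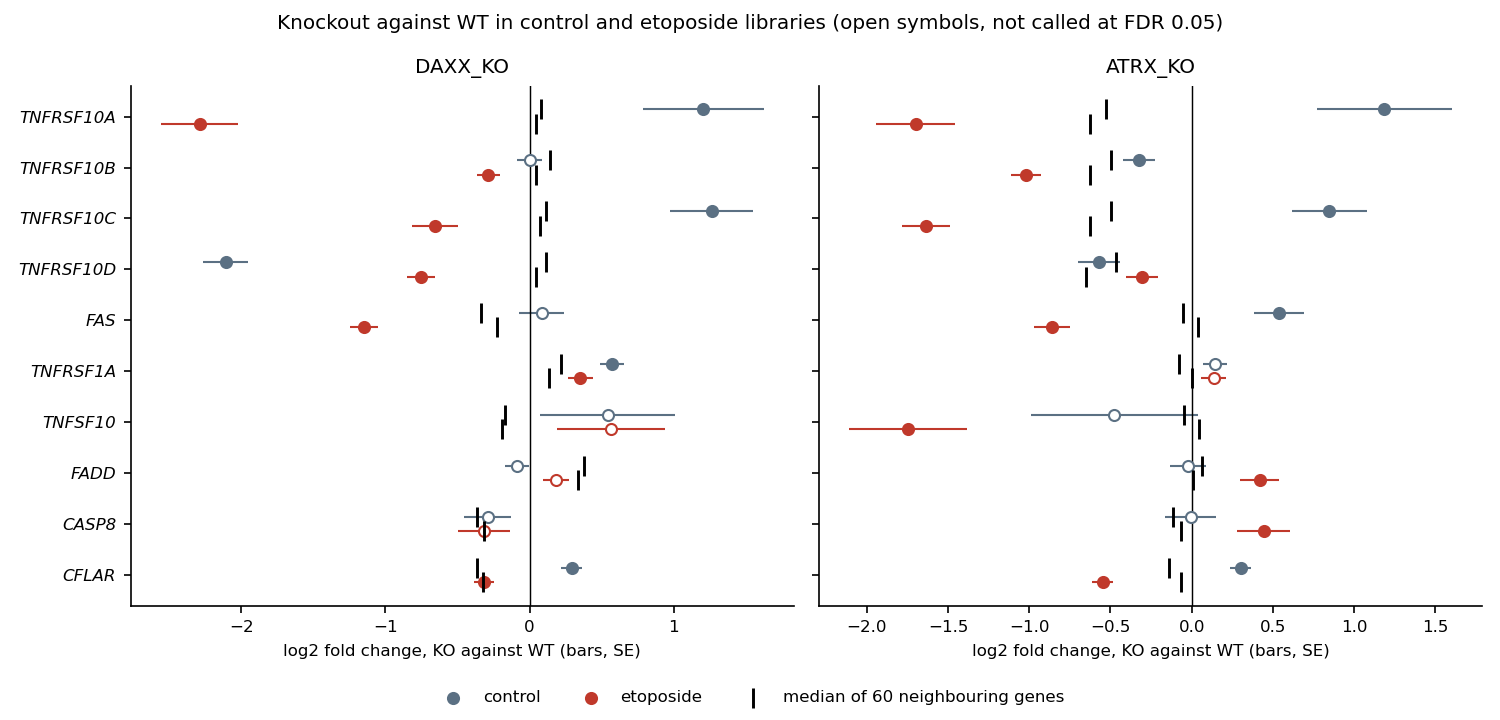
Log2 fold change of DAXX_KO (left) and ATRX_KO (right) against WT for the 10 genes, in control (grey) and etoposide (red) libraries, with SE bars, open symbols where not called, and black ticks at the median of the 60 nearest tested genes. TNFRSF10A stands to the right of 0 in control (1.205 and 1.19) and to its left with etoposide (-2.29 and -1.70) in both lines, and the ticks of the 4 TRAIL receptor genes lie at -0.65 to -0.47 in ATRX_KO.

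Other genes of the pathway were taken from 3 lists, of other receptors and ligands (15 genes), of receptor complex adaptors, kinases and ubiquitin ligases (20) and of caspases with their mitochondrial link (11). The ligand genes FASLG, TNF, LTA and LTB and the kinase gene RIPK3 were too low to be tested in either series. In WT etoposide raised 3 and lowered 5 of 10 tested other receptors and ligands in the DAXX series and raised 4 and lowered 5 of 11 in the ATRX series, with medians of -0.35 and -0.52. Over all genes tested, 29.6% rose and 30.6% fell in the DAXX series and 31.7% rose and 29.8% fell in the ATRX series, and the counts of the lists stand beside these shares. EDA2R, a receptor for an ectodysplasin, rose by 2.65 ± 0.09 (adjusted p = 5.02e-15) and 3.37 ± 0.10 (adjusted p = 7.05e-14), and LTBR, the lymphotoxin beta receptor, rose by 0.88 ± 0.09 (adjusted p = 6.40e-08) and 1.61 ± 0.11 (adjusted p = 1.80e-09). TNFRSF1B, the second TNF receptor, which has no death domain, fell by 1.96 and 1.71 on the log2 scale (SE 0.15 and 0.13, adjusted p = 8.37e-10 and 9.20e-09). NGFR rose as well (adjusted p = 0.00114 and 0.0180), to 0.719 ± 0.18 and 0.935 ± 0.086 CPM with etoposide, from control levels that do not carry a fold change.

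These receptors also differed in the knockouts. EDA2R and LTBR had interactions below 0 in both series (-0.98 ± 0.14 and -1.12 ± 0.14 for EDA2R, adjusted p = 7.68e-05 and 6.48e-05, and -0.85 ± 0.13 and -1.05 ± 0.16 for LTBR, adjusted p = 0.000169 and 0.000322), and TNFRSF1B had interactions above 0 (1.33 ± 0.20 and 0.86 ± 0.19, adjusted p = 0.000196 and 0.00591). In control both knockouts were lower than WT for TNFRSF11B, the secreted decoy osteoprotegerin that binds RANKL and TRAIL (-1.19 ± 0.25 and -2.92 ± 0.25, adjusted p = 0.000539 and 6.68e-08), for TNFRSF1B (-0.44 ± 0.13 and -0.70 ± 0.12, adjusted p = 0.00657 and 0.000224) and for TNFRSF12A, the TWEAK receptor (-0.34 ± 0.12 and -0.44 ± 0.14, adjusted p = 0.0249 and 0.0215). Over the list, 2 genes were higher and 4 lower of 10 in DAXX_KO control and 3 higher and 5 lower of 11 in ATRX_KO control, beside 26.7% higher and 26.6% lower, and 20.8% and 21.0%, over all genes tested.

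Of the adaptors, kinases and ubiquitin ligases, etoposide raised 8 and lowered 4 of 18 tested in WT of the DAXX series and raised 9 and lowered 5 of 19 in the ATRX series (medians 0.04 and 0.25), 12 of 18 and 14 of 19 called where 60.2% and 61.5% of all genes were. CASP10, a paralog of CASP8 on the same chromosome that also binds FADD, rose where CASP8 fell, by 1.39 ± 0.17 (adjusted p = 9.86e-07) and 1.90 ± 0.14 (adjusted p = 5.20e-09). TNFAIP3, which encodes the ubiquitin-editing enzyme A20, rose by 1.13 ± 0.27 (adjusted p = 0.00126) and 2.26 ± 0.27 (adjusted p = 1.30e-06), and DEDD2, a death effector domain protein, rose by 1.34 ± 0.12 and 1.59 ± 0.13 (adjusted p = 7.53e-09 and 2.06e-08). BIRC2, the gene of the ubiquitin ligase cIAP1, fell from 202 ± 8.0 to 79.4 ± 2.4 CPM in the DAXX series and from 233 ± 1.7 to 81.9 ± 4.4 CPM in the ATRX series (-1.33 ± 0.07 and -1.49 ± 0.11, adjusted p = 2.13e-12 and 4.73e-09).

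In control libraries both knockouts had already less BIRC2 (-1.07 ± 0.07 and -1.47 ± 0.11, adjusted p = 1.17e-10 and 1.79e-08) and less BIRC3 (-2.52 ± 0.30 and -0.82 ± 0.21, adjusted p = 7.07e-07 and 0.00395) than WT, and more TNFAIP3 (1.12 ± 0.27 and 2.74 ± 0.26, adjusted p = 0.00154 and 2.27e-07). The BIRC2 interaction was above 0 in both series (0.87 ± 0.10 and 0.96 ± 0.16, adjusted p = 6.44e-06 and 0.000711). Over the list, the interaction was called for 2 of 18 genes in the DAXX series (2 higher, 0 lower) and for 6 of 19 in the ATRX series (1 higher, 5 lower), beside 14.2% and 16.0% of all genes.

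Of the 11 caspases and linked genes, all tested, etoposide raised 4 and lowered 5 in WT of the DAXX series and raised 4 and lowered 6 in the ATRX series (medians -0.18 and -0.58), 9 of 11 and 10 of 11 called beside the same 60.2% and 61.5% of all genes. PIDD1, a p53-induced activator of caspase-2, rose by 2.10 ± 0.22 and 1.43 ± 0.20 (adjusted p = 1.07e-07 and 7.15e-06), and CASP2 itself fell from 103 ± 2.4 to 39.1 ± 1.6 CPM and from 111 ± 4.4 to 39.6 ± 3.3 CPM (-1.38 ± 0.08 and -1.47 ± 0.09, adjusted p = 7.27e-12 and 3.48e-10). CASP6, an effector caspase, fell too (-0.62 ± 0.13 and -1.13 ± 0.14, adjusted p = 0.000338 and 2.87e-06). Among these 11 genes the interaction was called below 0 for 1 in the DAXX series, and for 3 in the ATRX series, 1 below and 2 above 0, beside 14.2% and 16.0% of all genes called in either direction. In control, HTRA2, a mitochondrial protease, was lower in both knockouts (-0.48 ± 0.10 and -0.39 ± 0.10, adjusted p = 0.000641 and 0.00416).

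The genes whose 8 group means followed those of a receptor most closely were found by Pearson correlation of log2(CPM + 0.5) over the 8 groups, among 15039 genes tested in both series. They were MFSD4A (r = 0.994), SNHG7 (0.989) and GTDC1 (0.987) for TNFRSF10A, ZNF446 (0.991), POLH (0.991) and BAK1 (0.991) for TNFRSF10B, and ANKRA2 (0.997), FAM161B (0.996) and ZNF79 (0.995) for FAS. With 8 points that share libraries, these values describe likeness only.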

How the data were processed

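QuantSeq 3′ mRNA libraries of 24 samples were analysed. Reads were aligned by the authors with STAR to hg19, and RSEM gave the deposited estimated counts, which are whole numbers without normalization. Gene names and positions came from GENCODE release 44 on GRCh37, which matched 55501 of 57736 identifiers holding 98.8% of the counts. Where title and genotype tag disagree, as they do for DAXX_KO, the title was followed.

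Tests used edgeR 4.0.16 (R 4.3.3) with TMM factors, filterByExpr (minimum count 10, minimum total 15) and quasi-likelihood tests of 12 libraries and 4 groups in a series, or of all 24 libraries between series. The common biological coefficient of variation was 0.0825 (DAXX series), 0.106 (ATRX series) and 0.0960 (all libraries). The SE is the log2 fold change divided by the square root of its F statistic. Near 0 at low counts this quotient can fail as an SE, so none is given for TNFSF10 in the DAXX_KO interaction. Replicates differed by more than counting error (chi-square per degree of freedom 2.16 to 17.1 over 24 pairs, genes summing to 20 counts or more). On simulated data with 100 genes changed by a log2 value of 1 and 100 by 2, the interaction test recovered 71 and 93 of 100 (DAXX series), 66 and 85 (ATRX series) and 29 and 72 (between them), with 0 of the wrong sign and 3 to 9 false calls. Alternatives were DESeq2 1.42.0, RLE factors, library totals alone, no filter, all libraries in one model, only the compared groups, a minimum of 10 counts per library, a replicate block, each library left out in turn, and values relative to 30 tested genes on each side. Plots were made by matplotlib 3.10.9 (Python 3.11.15).

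The 10 genes, the pathway lists and the rule for named genes were chosen with earlier results of these data known. Named are the 10 genes, DAXX, ATRX, markers, RHOBTB2 for its overlap, per pathway list up to 4 genes (WT response) or 3 (other contrasts) called in one direction in both series with the largest mean change, and the 3 genes most like TNFRSF10A, TNFRSF10B and FAS. A further gene that this rule names is not reported here.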

Additional observations from a re-analysis of the deposited data

Results flagged for a closer look

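The effect of etoposide differed between WT and knockout by a test of the interaction for 10 results. In the DAXX series the log2 difference of the responses was -3.49 for TNFRSF10A, -1.92 for TNFRSF10C, 1.35 for TNFRSF10D, -1.23 for FAS and -0.61 for CFLAR. In the ATRX series it was -2.89 for TNFRSF10A, -0.69 for TNFRSF10B, -2.48 for TNFRSF10C, -1.40 for FAS and -0.85 for CFLAR.

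The effect of the knockout differed between DAXX_KO and ATRX_KO for 8 results. The difference, DAXX_KO minus ATRX_KO, was -1.54 for TNFRSF10D and 0.43 for TNFRSF1A in control libraries. With etoposide it was 0.71 for TNFRSF10B, 0.96 for TNFRSF10C, -0.47 for TNFRSF10D, 2.29 for TNFSF10 and -0.78 for CASP8. The interactions of the lines differed by 1.07 for TNFRSF10D. This call and that of CASP8 with etoposide were lost without single libraries.

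What these differences come from was not tested. Of the receptors, TNFRSF10A had the fewest counts in control libraries, at 2 to 22.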

How the results depend on the processing

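Of 82 called values of the 10 genes, 68 kept their direction and call under every alternative with a test, and those that did not are named with their values in the report. Same-numbered libraries showed no shared deviation, with correlations of -0.209 to 0.0505 over 36 comparisons. Whether they were handled together is not given in the sources used here. With a replicate block, the calls of the 10 genes stayed at 5 for the DAXX_KO interaction and 5 for the ATRX_KO interaction, and the block ended 1 call, that of TNFSF10 in WT of the DAXX series (1.08, adjusted p = 0.0570). With at least 10 counts in every library, which removes TNFRSF10A and TNFSF10 from the test in both series and TNFRSF10C from it in the DAXX series, 3 genes were called in place of 5 for DAXX_KO against WT in control, for the DAXX_KO interaction and for the difference between the knockouts with etoposide. For the difference between the knockouts in control, 3 genes were called in place of 2 with that minimum and with library totals alone. In each, 2 were higher and 1 was lower. Leaving out single libraries gave 0 to 1 genes for the difference between the interactions.

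Called values turned sign only relative to the 30 tested genes on each side, for TNFRSF10B in ATRX_KO control (0.174), CFLAR in DAXX_KO etoposide (0.00828) and TNFRSF10D in ATRX_KO etoposide (0.340). Uncalled values turned sign as follows. Relative to the same neighbours, TNFRSF10B in DAXX_KO control was -0.143, FADD in DAXX_KO etoposide -0.149, and CASP8 0.0750 in DAXX_KO control, 0.00099 in DAXX_KO etoposide and 0.111 in ATRX_KO control. TNFRSF10B in DAXX_KO control was -0.0231 without a filter, -0.0375 with RLE factors, -0.0373 with DESeq2, -7.54e-05 with the replicate block, -0.00342 with only the compared groups and -0.0013 with all libraries. CASP8 was -0.00566 in the ATRX_KO response without a filter and 0.000556 in ATRX_KO control with at least 10 counts in every library. With library totals alone, FADD was 0.102 in DAXX_KO control and 0.0392 in ATRX_KO control, CASP8 was 0.0536 in ATRX_KO control, and TNFSF10 was -0.0867 in the DAXX_KO interaction. TNFRSF1A in the ATRX_KO interaction was 0.014 with RLE factors, 0.0145 with DESeq2, 0.0311 with library totals and 0.0254 with all libraries. Leaving out single libraries gave -0.0699 to 0.217 for CASP8 in the ATRX_KO response, -0.0683 to 0.0586 for TNFRSF10B in DAXX_KO control, -0.127 to 0.0455 for FADD and -0.197 to 0.0984 for CASP8 in ATRX_KO control, -0.173 to 0.270 for TNFSF10 and -0.240 to 0.0875 for CASP8 in the DAXX_KO interaction, and -0.0666 to 0.0453 for TNFRSF1A in the ATRX_KO interaction.

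Library totals alone moved the median of all genes from 0.02 to 0.20 in DAXX_KO control, from -0.0037 to -0.11 in the DAXX_KO response, from 0.02 to -0.10 in the DAXX_KO interaction and, between the knockouts, from -0.0036 to 0.12 in control and from -0.01 to -0.14 for the interactions. The genes called higher and lower went from 4078 and 4063 to 5537 and 2826 in DAXX_KO control, from 1277 and 883 to 793 and 1359 in its interaction, and from 3767 and 3751 to 4684 and 3091 for ATRX_KO with etoposide. Between the series they went from 2827 and 2866 to 3559 and 2114 (control), from 320 and 180 to 207 and 389 (interactions) and from 237 and 289 to 155 and 340 (WT responses). CFLAR in DAXX_KO control went from 0.29 to 0.48. The cause was not tested. Depth limits TNFSF10, at 2 to 32 counts a library. In control libraries it also limits TNFRSF10A, at 2 to 22, and TNFRSF10C, at 9 to 27.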
